A study of Homo sapiens with 30 samples.

Results

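Promoter peaks of the single-stranded DNA-binding protein hNABP2 that one chromatin immunoprecipitation detected and its repeat did not are described here. They were the peaks of repeat 1 that the deposited annotation placed within 1 kb of a gene start, and that shared no base with any interval of the repeat 2 peak list. They were chosen by the deposited peak calls, their intervals and their distance to a start, so no measure of the same peaks is tested here. This rule kept 6785 of the 8981 promoter peaks of repeat 1, or 75.5% (exact Clopper-Pearson 95% interval 74.6% to 76.4%, for counting error only), out of 10055 annotated peaks in that list. The other 2196 promoter peaks overlapped a repeat 2 peak and are called shared. Repeat 2 had 2832 peaks in all, of which 2658 lay within 1 kb of a start. The members belonged to 6190 genes, of which 316 also had a shared promoter peak and 5874 did not.

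All libraries came from HT1080, a human fibrosarcoma line, at passages 10 to 15. The immunoprecipitations used chromatin of wild-type (WT) cells with a homemade antibody to hNABP2 (hSSB1), with rabbit IgG pulldowns beside them, in 2 repeats, and the labels' library protocol speaks of independent experiments. Nuclear run-on RNA, labelled by polymerases at work in isolated nuclei and pulled down with an antibody to BrdU, was sequenced from WT, hNABP2 (hSSB1)-KO and hNABP1 (hSSB2)-KO cells, each with and without NTP, in 3 repeats. DNA:RNA hybrids were pulled down with the S9.6 antibody (DRIP) from WT and hNABP2 (hSSB1) KO cells in 2 repeats, each with a sample treated with RNase H. The sources used here do not say how the knockouts were made or whether each is 1 clone. The peak lists carry no read numbers, so the depth behind each immunoprecipitation is unknown.

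hNABP2 binds single-stranded DNA and works with INTS3 and INIP in the SOSS complex, which acts in the response to DNA double-strand breaks. INTS3 also belongs to Integrator, a large complex at RNA polymerase II promoters that cleaves nascent RNA and forms the 3' ends of the U small nuclear RNAs. hNABP1 is a close relative that can take its place in the same complex.

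The sequences below are promoter windows from RefSeq on build GRCh38.p14, each running from 250 bases before to 50 bases after a gene start and printed along the strand of the gene. Windows of the members with the highest fold enrichment come first, then windows of histone genes and a ribosomal protein gene, and last the windows of the shared peaks with the highest fold. The histone, ribosomal protein and shared windows were chosen after their values were seen. Capitals mark 4 motifs on either strand. The GC box, the motif bound by Sp1, is GGGCGG. A match to CCAAT is a box bound by NF-Y. The TATA box, which places the start of transcription at some promoters, was searched as TATAAA. Factors of the ETS family bind the core CCGGAAG. Neighbouring matches can run together. The LRRC74B window lies at chr22:21045696-21045995 on the plus strand, CIC at chr19:42269002-42269301 on the plus strand and GTF2A1 at chr14:81220910-81221209 on the minus strand. ACAP2 lies at chr3:195442971-195443270 on the minus strand, H4C2 at chr6:26027234-26027533 on the minus strand and H2AC20 at chr1:149886668-149886967 on the plus strand. RPLP1 lies at chr15:69452568-69452867, PKNOX1 at chr21:42974312-42974611 and KDM4B at chr19:4968863-4969162, all on the plus strand.
LRRC74B: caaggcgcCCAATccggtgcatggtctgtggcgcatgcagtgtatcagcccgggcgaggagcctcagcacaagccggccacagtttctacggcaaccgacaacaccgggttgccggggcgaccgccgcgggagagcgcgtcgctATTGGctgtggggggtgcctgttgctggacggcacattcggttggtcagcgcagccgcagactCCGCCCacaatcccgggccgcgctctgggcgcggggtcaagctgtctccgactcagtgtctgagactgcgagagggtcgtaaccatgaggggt
CIC: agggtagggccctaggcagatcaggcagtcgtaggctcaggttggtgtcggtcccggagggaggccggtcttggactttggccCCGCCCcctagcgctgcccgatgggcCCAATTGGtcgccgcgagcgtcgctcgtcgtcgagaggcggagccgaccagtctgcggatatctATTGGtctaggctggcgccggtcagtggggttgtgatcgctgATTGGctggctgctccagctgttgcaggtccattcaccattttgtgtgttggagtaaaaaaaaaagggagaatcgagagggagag
GTF2A1: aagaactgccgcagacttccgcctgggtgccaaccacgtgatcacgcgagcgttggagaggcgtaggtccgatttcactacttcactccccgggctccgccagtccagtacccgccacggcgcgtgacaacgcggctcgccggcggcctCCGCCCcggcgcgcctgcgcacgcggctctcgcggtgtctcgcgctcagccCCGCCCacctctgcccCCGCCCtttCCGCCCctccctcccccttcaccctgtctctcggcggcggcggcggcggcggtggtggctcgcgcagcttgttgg
ACAP2: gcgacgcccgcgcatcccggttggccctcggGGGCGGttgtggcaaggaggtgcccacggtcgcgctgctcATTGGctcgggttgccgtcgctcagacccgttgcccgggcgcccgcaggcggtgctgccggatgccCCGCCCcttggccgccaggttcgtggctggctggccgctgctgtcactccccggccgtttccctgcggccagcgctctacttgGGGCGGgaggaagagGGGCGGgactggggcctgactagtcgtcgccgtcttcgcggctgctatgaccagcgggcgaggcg
H4C2: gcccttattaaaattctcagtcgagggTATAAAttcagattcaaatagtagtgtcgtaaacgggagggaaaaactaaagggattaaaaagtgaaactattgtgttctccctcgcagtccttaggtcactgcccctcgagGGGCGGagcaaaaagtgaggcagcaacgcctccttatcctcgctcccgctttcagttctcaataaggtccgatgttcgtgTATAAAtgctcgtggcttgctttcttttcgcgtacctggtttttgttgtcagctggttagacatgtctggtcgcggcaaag
H2AC20: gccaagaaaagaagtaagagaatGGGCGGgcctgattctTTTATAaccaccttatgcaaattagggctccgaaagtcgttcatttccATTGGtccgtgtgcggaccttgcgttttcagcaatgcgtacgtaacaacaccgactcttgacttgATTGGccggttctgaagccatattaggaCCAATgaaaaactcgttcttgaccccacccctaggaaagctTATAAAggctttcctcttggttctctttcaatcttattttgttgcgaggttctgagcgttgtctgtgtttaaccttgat
RPLP1: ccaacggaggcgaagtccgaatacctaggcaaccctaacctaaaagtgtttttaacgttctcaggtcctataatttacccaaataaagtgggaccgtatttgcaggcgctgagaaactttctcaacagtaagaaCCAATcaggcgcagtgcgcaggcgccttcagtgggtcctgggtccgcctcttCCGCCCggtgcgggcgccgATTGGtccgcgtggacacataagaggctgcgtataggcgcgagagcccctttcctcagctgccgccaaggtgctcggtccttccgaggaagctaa
PKNOX1: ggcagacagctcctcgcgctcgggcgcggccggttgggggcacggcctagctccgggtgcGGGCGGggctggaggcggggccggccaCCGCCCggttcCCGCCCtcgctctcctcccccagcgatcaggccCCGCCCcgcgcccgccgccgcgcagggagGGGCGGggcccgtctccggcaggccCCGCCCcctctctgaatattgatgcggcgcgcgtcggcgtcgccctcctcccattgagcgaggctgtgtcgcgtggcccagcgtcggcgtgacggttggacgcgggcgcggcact
KDM4B: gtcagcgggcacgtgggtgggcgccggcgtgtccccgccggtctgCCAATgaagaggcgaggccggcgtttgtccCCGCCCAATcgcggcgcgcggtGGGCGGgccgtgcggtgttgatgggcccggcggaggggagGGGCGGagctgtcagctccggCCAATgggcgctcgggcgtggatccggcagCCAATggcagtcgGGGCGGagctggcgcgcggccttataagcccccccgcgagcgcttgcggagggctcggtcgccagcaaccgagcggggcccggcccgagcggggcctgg

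The window of LRRC74B, a leucine-rich repeat protein gene, had a GC content of 66.7% with 1 GC box and 2 CCAAT boxes. The window of CIC, a transcriptional repressor, had a GC content of 61.0% with 1 GC box and 4 CCAAT boxes. The windows of GTF2A1, which encodes a subunit of the general factor TFIIA, and ACAP2, a GTPase-activating protein gene, held 4 GC boxes each. The core histone windows were AT-rich by comparison: H4C2 had a GC content of 46.7% with 2 TATA boxes and 1 GC box, and H2AC20 had 44.7% with 2 TATA boxes, 3 CCAAT boxes and 1 GC box. The shared windows of PKNOX1 and KDM4B had GC contents of 78.7% and 76.7% and held 6 and 4 GC boxes.

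A RefSeq window was found for 4442 member peaks (65.5%) and 1546 shared peaks (70.4%), and peaks without one are not in these figures. The median GC content was 69.3% for the members (middle 50% from 64.7% to 73.7%), 75.3% for the shared peaks (71.0% to 79.0%) and 58.7% for all 35116 windows (47.0% to 68.0%). The ratio of observed to expected CpG had medians of 0.888, 0.939 and 0.579 in the same order. A GC box was present in 82.0% of member windows, 91.8% of shared windows and 45.0% of all windows. An ETS core was present in 1000 of 4442 member windows (22.5%), in 216 of 1546 shared windows and in 3603 of all windows (10.3%). A CCAAT box was present in 32.7%, 27.9% and 34.6%, and a TATA box in 3.22%, 2.72% and 11.5%. A run of 5 G (GGGGG) was present in 76.7%, 87.3% and 58.4%. The NRF1 core (GCGCATG) was present in 7.38%, 5.50% and 4.43%, and the YY1 core (AAGATGG) in 8.13%, 5.24% and 5.84%. These matches describe letters in the windows and are not shown to be bound, and motif counts rise and fall with GC content.

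The deposited fold enrichment, the authors' own value for each peak, was similar for members and shared peaks. Members ranged from 1.64 to 25.8 with a median of 3.14 (middle 50% from 2.64 to 3.89), and shared peaks ranged from 1.47 to 17.9 with a median of 3.22. A fold of 5 or more was reached by 610 members (8.99%) and 237 shared peaks (10.8%). The deposited −log10 q had a median of 12.1 in members and 14.7 in shared peaks. Members were narrower, with a median width of 345 bp (middle 50% from 242 to 485 bp) against 525 bp (375 to 730 bp) for shared peaks. Peak calls and widths chose the members, so these values are a description and carry no test. The 2658 promoter peaks of repeat 2 had a median fold of 5.87, none under 3.05, and a median −log10 q of 4.50, so the lists of the 2 repeats differ in their range of fold.

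Most members lay on the start itself. The peak covered the annotated start in 5257 members (77.5%), lay downstream in 911 (13.4%) and upstream in 617 (9.09%). Among shared peaks the start was covered in 1874 (85.3%), with 196 (8.93%) downstream and 126 (5.74%) upstream. Members that did not cover a start lay at a median distance of 126 bp from it, against 110 bp for shared peaks.

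**Figure D1:**
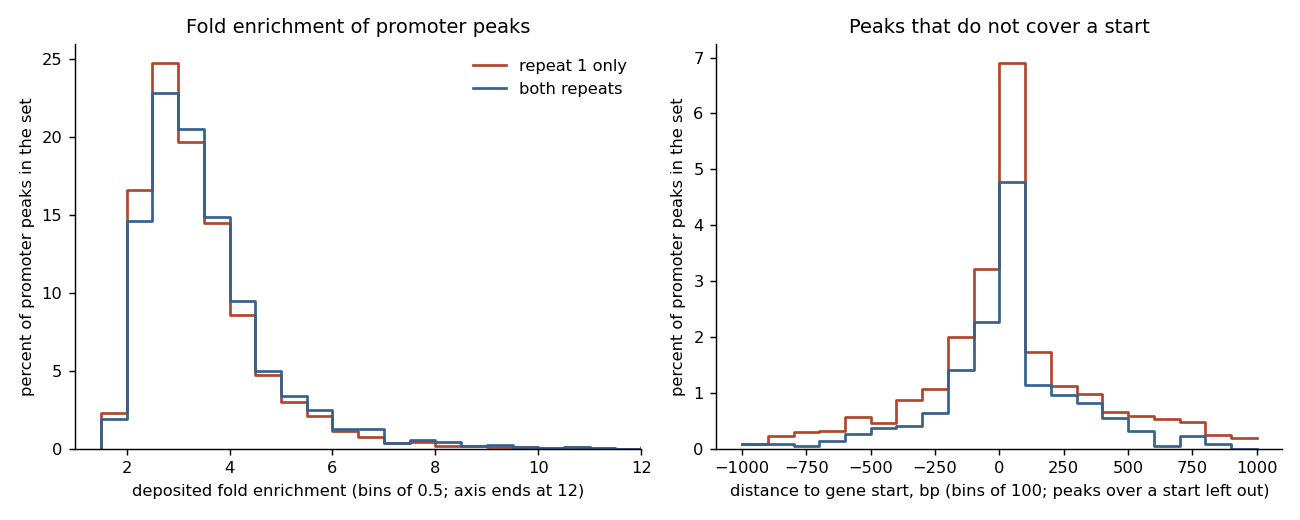
Left, deposited fold enrichment of promoter peaks of repeat 1 on the x axis (bins of 0.5) against the percent of each set on the y axis, in red for the 6785 peaks in repeat 1 only and in blue for the 2196 shared peaks. Right, distance to the gene start in bp for peaks that do not cover a start, as a percent of all peaks of the set; the fold distributions lie nearly on each other with medians of 3.14 and 3.22, and the red line is higher on both sides of the start.

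Members near the limits of the rule show how the cutoffs act. The peak of TGFBR1, which encodes a TGF-beta receptor, and the peak of KLF10, an early target of that pathway, touched a repeat 2 peak with a gap of 0 bp, and AC105285.1 was 2 bp away. Just outside, the promoter peaks of PACSIN3 and CEBPG shared 1 bp with repeat 2 and LMO7-AS1 shared 2 bp. A repeat 2 peak lay within 500 bp of 262 members (3.86%) and within 1000 bp of 365 (5.38%), and the median gap was 175071 bp. At the distance limit, ZFP36L1 was the farthest member at 992 bp downstream of its start, with MAMDC4 at 985 bp and OSTN-AS1 at −985 bp (upstream). Peaks of AC005224.3, HOXB7 and ADGRL2 lay just past it, at −1009, −1019 and 1024 bp. The lowest folds among members belonged to C3orf52 (1.64), FBXL18 (1.66) and HSPB11 (1.67).

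The share of promoter peaks found in repeat 1 only, taken over 10 groups of equal size (deciles), varied little with fold and much more with width and GC content. Over deciles by fold it went from 78.3% in the lowest (95% interval 75.5% to 81.0%) to 72.5% in the highest (69.4% to 75.4%). Over deciles by −log10 q it went from 82.3% to 65.4%, and over deciles by width from 90.4% (median 180 bp) to 42.7% (median 888 bp). Over deciles by the GC content of the promoter window it went from 92.8% (90.5% to 94.8%), where the median GC content was 57.7%, to 37.6% (33.7% to 41.6%), where it was 81.0%. The median fold of these GC deciles stayed between 3.14 and 3.35.

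Width and GC content went together, with a median width of 296 bp in the lowest GC decile and 519 bp in the highest. Splitting the peaks at the medians of both gave 93.2% in repeat 1 only for the 1965 narrow peaks of lower GC content and 77.3% for the 1122 wide peaks of lower GC content. The narrow peaks of higher GC content gave 73.1% (761 of 1041) and the wide ones 52.8% (982 of 1860). Width still differed within these classes: the median was 277 bp and 297 bp for the narrow peaks of lower and higher GC content, and 540 bp and 611 bp for the wide ones. Width enters the overlap rule, and the parts of GC content and width in the choice of members were not tested.

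**Figure D2:**
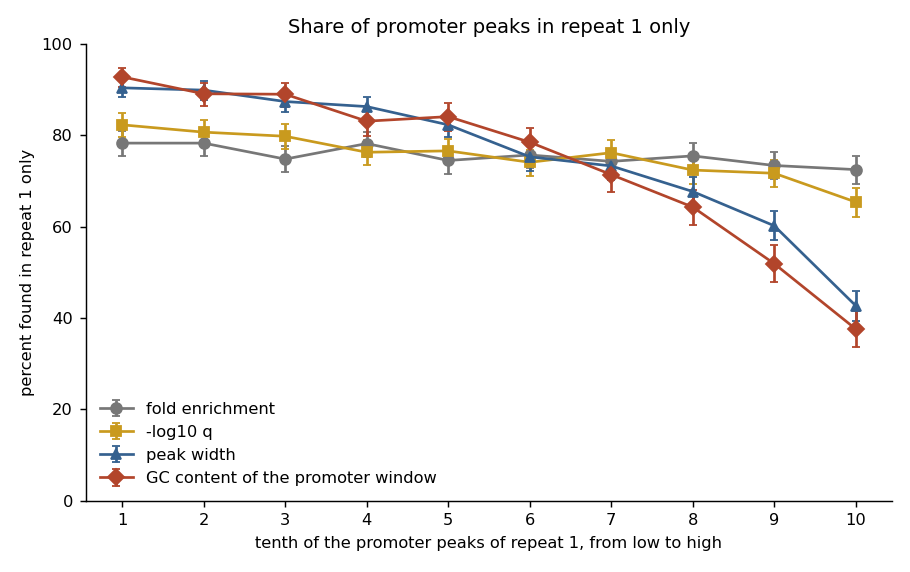
Percent of promoter peaks found in repeat 1 only (y axis) in deciles of the peaks ranked from low to high (x axis) by fold enrichment, −log10 q, peak width or GC content of the promoter window; bars are exact 95% intervals for counting error only. The grey line for fold stays between 72.5% and 78.3%, while the line for GC content falls from 92.8% to 37.6%.

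The members of highest fold combined genes of the U5 small nuclear RNA family with a set of protein-coding promoters. RNU5F-1, a U5 small nuclear RNA gene (the RNA at the core of the spliceosome), had the highest fold, 25.8, in a peak at chr1:44721577-44721797. RNU5E-4P and RNU5A-8P, annotated as pseudogenes of the same family, followed with 19.4 and 18.5. LRRC74B had 18.5 and CIC had 17.2. GTF2A1 had 17.1, and FBH1, an F-box DNA helicase gene, had 15.8. ACAP2 had 15.6, the DNA-binding factor gene RFX1 had 13.9 and FAM53C had 13.8. These 10 peaks were far from any repeat 2 peak: the nearest lay 13633 bp away at CIC, and 3899803 bp away at GTF2A1.

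U small nuclear RNA genes had promoter peaks in repeat 1 only. All 18 promoter peaks of this list, at 16 of its 41 genes, were members, with a median fold of 6.09 and a range of 2.00 to 25.8. Examples were RNU1-2 (fold 11.3), which encodes U1, RNU5D-1 (9.25), RNU12 of the minor spliceosome (7.76), RNU5A-1 (6.78) and RNU4-2 (5.77). Unlike most members, most of these peaks lay downstream of the annotated start and did not cover it. The RNU5F-1 peak began 105 bp downstream, in a gene that spans 118 bp. Peaks of RNU1-2 lay at 170 and 885 bp, and those of RNU4-2 at 19 and 812 bp. RNVU1-21 had its start covered, and RNVU1-8 (−27 bp) and RNU6ATAC (−438 bp) had upstream peaks. A further 6 peaks, again all members, lay at small structural RNA genes with a median fold of 5.37: SNORD3B-2 (7.91), which encodes the U3 nucleolar RNA, RPPH1 (6.66), the RNA of RNase P, and SNORD13 (6.41). The remaining 3 were RN7SK (4.32), whose RNA holds the elongation factor P-TEFb in an inactive form, TERC (3.43), the telomerase RNA, and RMRP (2.59), the RNA of RNase MRP. Both lists were added after values were seen. Several of these genes, such as those of U1 and U5, have near-identical copies or pseudogenes, so the copy under such a peak is uncertain, and how well reads can be placed there was not measured.

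Replication-dependent histone genes behaved alike in the peak lists. Their 26 promoter peaks, at 24 of 69 genes, were all in repeat 1 only, with a median fold of 5.17 and a range of 2.16 to 9.61. The highest were H4C2 (9.61), H2AC20 (9.50), H4C3 (8.62), H2BC21 (7.99) and H4C8 (7.84), and the lowest was H2BC13 (2.16). These genes encode the core and linker histones made in S phase, and most lie in a cluster on chromosome 6. Of their peaks 12 had a promoter window, with a median GC content of 43.8%, a TATA box in 66.7% and a CCAAT box in 83.3%, against 3.22% and 32.7% for all members. By the deposited distances most histone peaks lay downstream of the annotated start, while others, such as those of H4C2 and H4C8, covered it. The windows therefore describe the promoter and not the sequence under the peak. The H2AC20 window ends at 149886967 and its peak begins at 149886941. The H4C2 window begins at 26027234 and its peak ends at 26027253, so the peak does not reach the RefSeq start of that window. Many histone genes are closely related copies, and the same limit applies to them.

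Counts for other gene lists are read beside the share over all genes. Over all RefSeq protein-coding genes, 6046 promoter peaks were members and 2068 were shared (74.5% in repeat 1 only), and 25.8% of 20052 genes had a member peak and no shared one. Cytosolic ribosomal protein genes had 49 member peaks and 2 shared ones, with RPLP0 (fold 7.88), RPL12 (7.84), RPLP1 (7.43) and RPL35 (7.21) highest. Mitochondrial ribosomal protein genes had 39 member peaks and none shared, with MRPL17 (5.82) and MRPL38 (5.20) highest. Respiratory chain genes had 32 and 4, with NDUFA5 of complex I highest at 8.56. Proteasome genes had 20 and 3, led by PSMD4 and PSMD8 (6.55 each), subunits of the regulatory particle. RNA polymerase subunit genes had 16 and 1, led by POLR3D (8.48), and Mediator, TFIID and general factor genes had 32 and 3.

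Genes for R-loop factors and RNA helicases had 39 member peaks and 2 shared ones, with DDX54 (fold 5.95), DDX3X (5.85) and RNASEH2C (5.32), a subunit of the enzyme that removes RNA from DNA. Break and replication stress response genes had 27 and 4, led by the checkpoint kinase gene ATR (4.30), NBN (4.11) and PALB2 (4.11). Nearer the share over all protein-coding genes were S phase and replication genes with 28 and 8 (77.8%), led by RFC5 (6.72), and splicing factor and hnRNP genes with 45 and 11 (80.4%), led by HNRNPL (8.27). Genes of ATF4 and the unfolded protein response had 29 and 2, G2 and mitosis genes 28 and 3, and interferon-stimulated genes 12 and 0. Integrator and SOSS genes had 8 member peaks, among them NABP1 (4.73), NABP2 itself (4.50), INTS5 (4.39) and INTS14 (3.64), and 2 shared ones (80.0% in repeat 1 only). All 11 peaks at mitochondrially encoded genes were members, the highest at MT-TP (12.8), which adjoins the control region of that genome. Repeat 2 had 0 peaks on the mitochondrial chromosome, so none of these peaks could be shared.

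The lists below the protein-coding share of 74.5% were few, and most were close to it. TGF-beta and Hippo pathway genes had 30 member peaks and 13 shared ones (69.8% in repeat 1 only), immediate early genes 19 and 8 (70.4%), collagen and matrix genes 17 and 6 (73.9%), and HOX genes 6 and 6 (50.0%). Of 28 lists with 6 or more promoter peaks, 24 lay above the protein-coding share and 4 below it. The 24 include the mitochondrially encoded genes, whose share was fixed by the lack of repeat 2 peaks on their chromosome. The median GC content of member windows did not order the lists in one way. It was 60.8% for cytosolic ribosomal protein genes and 71.7% for TGF-beta and Hippo genes, but 63.3% for HOX genes (3 windows), which had the lowest share, and 70.3% for interferon-stimulated genes, whose peaks were all members. The part of GC content in the list shares was not tested.

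**Figure D3:**
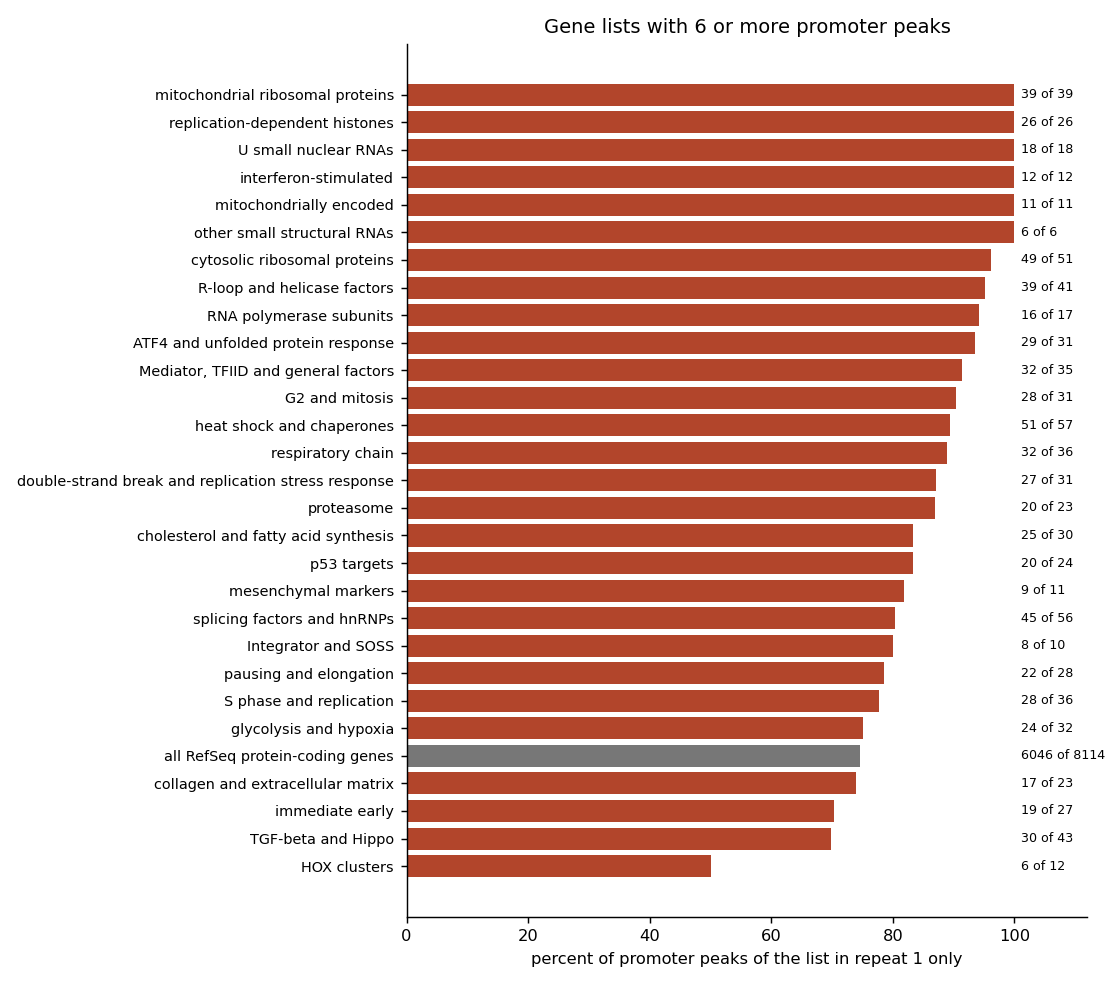
Percent of the promoter peaks of each gene list that were found in repeat 1 only (x axis), for lists with 6 or more promoter peaks, with the number of member peaks of all promoter peaks at the right and all protein-coding genes in grey. The 6 lists at 100% include the histones (26 of 26) and the U small nuclear RNAs (18 of 18), and the HOX clusters are lowest at 6 of 12. The mitochondrially encoded list is at 100% because repeat 2 had no peak on that chromosome.

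Most member genes had 1 member peak (5670 of 6190), 460 had 2, 51 had 3 and 9 had 4 or more. PLEC, which encodes the cytoskeletal linker plectin, had 8 member peaks over 6 annotated transcript starts and 1 shared peak. MNT, a MAX-binding repressor gene, and NOL4L had 5 each. CCND1 (cyclin D1), CIRBP, JADE2, VIM, ZFP36L1 and ZNF398 had 4 each, and of these CIRBP had a shared peak too. By chromosome the share in repeat 1 only was highest on X among the larger counts, with 158 of 176 (89.8%, 95% interval 84.3% to 93.8%), and lowest on chromosome 21, with 58 of 89 (65.2%). The X-linked members had a median window GC content of 68.7% and a median width of 297 bp.

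Of the 17 genes on the list of mesenchymal markers, 5 had member peaks and no shared one (29.4%, beside 25.8% of all protein-coding genes), 2 had shared peaks only and 10 had no promoter peak. The 5 were FN1, VIM, COL6A1, ZEB1 and NRAS (fold 7.94), a GTPase gene that is not particular to mesenchymal cells. FN1 (fibronectin) had a member peak of fold 11.6 and VIM (vimentin), the intermediate filament of mesenchymal cells, had 4 of fold 3.34 to 7.01, whereas SPARC had no member peak. In the run-on libraries FN1 had 16, 2 and 8 counts in WT with NTP and VIM had 9, 0 and 36, while SPARC had 0, 0 and 15. Without NTP FN1 had 19, 0 and 2 counts in WT, VIM 16, 1 and 31, and SPARC 10, 0 and 3. Mean CPM without and with NTP was 722 and 575 for FN1, 1180 and 323 for VIM, and 413 and 30.4 for SPARC. The repeats lay far apart, with SDs of 859 and 386 for VIM. Summed over its 17 genes, NRAS among them, the mesenchymal list took 0.0831% to 0.368% of the counts of the 9 libraries with NTP. The epithelial list (14 genes) took 0.0216% to 0.317%, the leukocyte list (14 genes, with LYZ at 0) 0.0225% to 0.0868% and the neural list (13 genes) 0.0170% to 0.0664%. The mesenchymal and epithelial ranges overlapped, and among the epithelial genes KRT8, KRT18 and CLDN7 had member peaks of fold 5.62, 3.76 and 2.61.

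The run-on libraries were shallow and uneven, with 5272 to 164357 counts in genes. With NTP, repeats 1 and 2 held 5883 to 19581 counts and repeat 3 held 115528 to 164357. The antisense share of counts also differed between repeats, over unlike sets of pairs. Each pair joined a member gene and the gene named as its antisense partner, with 10 or more counts together over the 6 libraries of a repeat. The antisense gene took a median of 81.5% of the counts in repeat 1 (98 pairs), 81.8% in repeat 2 (81 pairs) and 34.3% in repeat 3 (298 pairs). The same pairs were not compared across repeats. The strand setting of the counting was not stated, so reads of a gene and its antisense partner cannot be told apart, and the cause of the lean was not tested. The targeted genes did not separate the knockouts: NABP2 had 4, 0 and 8 counts in WT with NTP and 4, 3 and 15 in the libraries labelled hNABP2 KO. NABP1 had 1, 0 and 19 counts in WT with NTP and 0, 1 and 18 in the libraries labelled hNABP1 KO. These counts therefore give no check of the labels.

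Of the 6190 member genes 5808 were in the count table, and 5735 of them (98.7%) had a run-on count in WT with NTP summed over 3 libraries. At 3 counts or more the number was 5557 (95.7%) and at 10 or more 3549 (61.1%). In WT without NTP, the background of the assay, 3928 member genes (67.6%) had a count and 129 (2.22%) had 10 or more. Over all 26471 genes 77.7% had a count and 27.6% had 10 or more with NTP, and 39.7% and 1.31% without. The WT libraries held 5883 to 164357 counts with NTP and 5272 to 19247 without, so these shares are not compared between the 2 states. The shares below also move with the depth of each library, so they are compared only within a library. Among the 5496 member genes without a shared peak, 33.5%, 15.9% and 98.5% had a count in repeats 1, 2 and 3 of WT with NTP. The 1713 genes with shared peaks only gave 36.0%, 18.7% and 99.4%, and the 18950 genes with no promoter peak gave 13.2%, 7.01% and 68.1%. In each of these 3 libraries the share of member genes was just below that of shared genes and above that of genes without a peak.

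**Figure D4:**
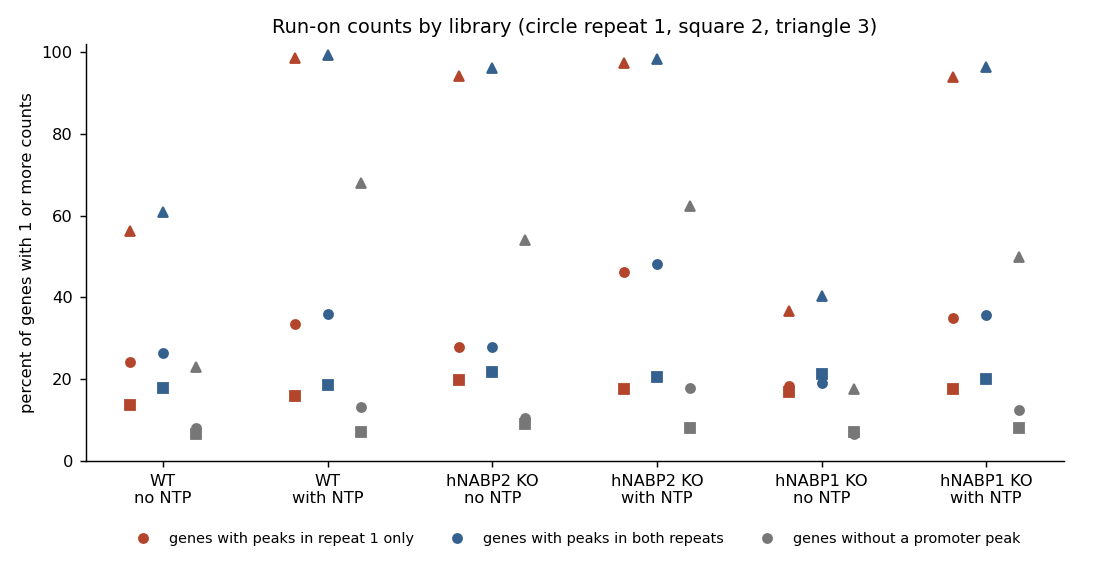
Percent of genes with 1 or more run-on counts (y axis) in each of 18 libraries, by genotype and NTP on the x axis, for genes with promoter peaks in repeat 1 only (red), in both repeats (blue) and with no promoter peak (grey); circles are repeat 1, squares repeat 2 and triangles repeat 3. Red points lie close to the blue points and above the grey points of the same library, and repeat 3 with NTP reaches 93.9% to 98.5% for the red set.

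The member genes without a shared peak took 32.0% ± 6.47 of the counts in WT with NTP (SD, n = 3), 33.7% ± 4.90 with the label hNABP2 KO and 33.4% ± 6.76 with the label hNABP1 KO (SD, n = 3 each). Single libraries ranged from 26.1% to 39.9%, and the 3 genotypes overlapped. Without NTP the share was 31.1% ± 6.21 in WT. Because exon lengths were not at hand, levels are in CPM, counts scaled to a common library total, and only a value per kb of gene span corrects for length. In repeat 3 of WT with NTP the median was 1.95 CPM per kb of span for these genes and 0.431 for genes without a promoter peak. In repeat 3 of hNABP2 KO it was 1.76 for these genes, 1.29 for genes with shared peaks only and 0.348 for genes without a promoter peak. In repeats 1 and 2 of WT these medians were 0. Without NTP, repeat 3 gave 0.515 for these genes and 0 for genes without a promoter peak in WT. It gave 1.65 and 0.152 in hNABP2 KO, and 0 for both sets in hNABP1 KO. A gap was thus also present without NTP in WT and hNABP2 KO. Counts summed over each set, per kb of summed span, gave 1.07 and 0.495 in repeat 3 of WT with NTP. They gave 0.851 and 0.615 in repeat 1 and 0.718 and 0.641 in repeat 2.

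Run-on level was somewhat higher for member genes of higher fold. Over deciles of the member genes without a shared peak, ranked by fold, the share with 10 or more counts in WT with NTP was 58.5% in the lowest (median fold 2.17), 52.9% in the next and 69.8% in the highest (median fold 5.73). The median level in repeat 3 was 1.63 CPM per kb of span in the lowest decile and 3.23 in the highest. This is a description over genes of the same libraries.

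The member genes of highest mean CPM in WT with NTP had counts in all 3 repeats. RMRP had 81, 84 and 66 counts, or 6760, 14300 and 402 CPM. Without NTP it had 102, 36 and 45 counts, so its counts overlapped the background. RN7SK had 26, 26 and 142 counts with NTP, and 32, 16 and 674 without. MFSD11, a membrane transporter-like gene, had 39, 16 and 52 counts with NTP and 29, 14 and 13 without. SPNS2, a sphingosine-1-phosphate transporter gene, had 18, 14 and 30 counts with NTP, and DLG4, a synaptic scaffold gene, had 15, 12 and 32. FLNA (filamin A) had 23, 6 and 30 counts, KRT8 had 29, 3 and 11, and KIAA0895 had 37, 1 and 12. HCFC1R1 had 10, 11 and 45 counts. In CPM with NTP these genes were lowest in repeat 3, the deepest library. Raw counts with and without NTP come from libraries of unlike depth, 164357 and 19247 counts in repeat 3. Mean CPM with and without NTP was 2100 and 2160 for MFSD11, 1350 and 1480 for SPNS2, and 1160 and 992 for DLG4. It was 1110 and 1300 for KIAA0895, 1040 and 1500 for FLNA, 999 and 985 for KRT8, and 993 and 833 for HCFC1R1. Each difference was below the SD between repeats, which with NTP includes the low CPM of repeat 3. The means were not compared by repeat number. CPM is a share of the counts of a library, so similar CPM can come with unlike amounts of run-on RNA. These values therefore cannot decide whether the genes stood above background.

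Counts were low at most of the small RNA and histone genes with member peaks. RNU5F-1 and RNU1-2 had 0 counts in all 18 libraries, which allows up to 3 counts per library, and RNU5D-1 had 1 in repeat 3 of WT with NTP. RNU12 had 0, 0 and 4 counts in WT with NTP and RNVU1-15 had 0, 0 and 8. Among histone genes, named in the count table by their older symbols, H4C2 (HIST1H4B) had 0, 0 and 9 counts, H4C8 (HIST1H4H) 1, 0 and 12 and H1-4 (HIST1H1E) 15, 0 and 16. Among the protein-coding promoters of highest fold, ACAP2 had 0, 0 and 55 counts in WT with NTP, RFX1 2, 1 and 37, FBH1 (FBXO18) 3, 0 and 29, CIC 1, 0 and 21 and GTF2A1 1, 0 and 21. For ACAP2 the libraries labelled hNABP2 KO gave 2, 0 and 29 and those labelled hNABP1 KO 0, 0 and 46. Nearly all WT counts of these protein-coding genes came from repeat 3.

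The comparison of each knockout with WT asked whether nascent RNA of the member genes depended on hNABP2 or hNABP1. Low counts left 129 genes to test with NTP, 38 of them members, and 0 genes (0% of those tested) passed an adjusted p of 0.05 in either comparison by edgeR's quasi-likelihood test. DESeq2 also called 0. At an unadjusted p under 0.05 edgeR counted 0 members for either knockout, and DESeq2 counted 1 for each. With the repeat number as a block, edgeR counted 3 members for hNABP2 KO and 5 for hNABP1 KO at that threshold. Over all 129 genes it counted 4 and 10, and 0 passed after adjustment. The median log2 fold change of the 38 members was 0.00 for hNABP2 KO and −0.17 for hNABP1 KO, beside 0.03 and 0.10 over all 129 genes. Both comparisons share the WT libraries. With library totals in place of TMM scaling, the medians over all 129 genes moved to 0.25 and −0.19 and those of the members to 0.22 and −0.49.

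DLG4 had the smallest p among members in the hNABP2 KO comparison. Its counts were 15, 12 and 32 in WT with NTP and 9, 6 and 14 in the libraries labelled hNABP2 KO. The log2 fold change was −1.16 (SE 0.525), with an adjusted p from edgeR of 0.990. In CPM it was lower in hNABP2 KO in each of the 3 same-numbered pairs (460 against 1250, 912 against 2040 and 121 against 195), while the groups overlapped across repeats. With the repeat number as a block the value was −1.15, with an edgeR adjusted p of 0.842. The 7, 6 and 14 counts in the libraries labelled hNABP1 KO gave −0.97 with the same SE, lower in all 3 pairs as well and also short of the threshold, in a comparison that shares the WT libraries. FADS2, a fatty acid desaturase gene, had 13, 6 and 21 counts in WT, 3, 9 and 9 in hNABP2 KO and 5, 7 and 4 in hNABP1 KO. AHNAK, a large scaffold protein gene, had 27, 1 and 16 counts in WT and 135, 1 and 21 in the libraries labelled hNABP2 KO, with a log2 fold change of 1.57 (SE 1.57). Without repeat 1 of hNABP2 KO that value was −1.20. None of these genes passed the test.

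A fit that kept genes with 10 or more counts and treated the repeat number as a block called 16 of 13447 genes (0.119%) for hNABP1 KO, and 6 of the 5396 member genes in it, all higher. It called 0 genes for hNABP2 KO, where 44 of 5396 members and 112 of all 13447 genes had an unadjusted p under 0.05. For hNABP1 KO these numbers were 331 and 678. UBE2S, the ubiquitin-conjugating enzyme that extends chains for the anaphase-promoting complex, had 0, 0 and 10 counts in WT with NTP and 1, 0 and 202 in the libraries labelled hNABP1 KO. The fitted log2 difference was 5.03, with an SE of 0.989 and an edgeR adjusted p of 0.00241. MAP2K7, a kinase of the JNK pathway, had 0, 0 and 17 counts against 1, 0 and 278, with an edgeR adjusted p of 0.00276. P4HB, the protein disulfide isomerase gene, had 1, 0 and 16 against 0, 0 and 238, and SFR1, a recombination factor gene, had 0, 0 and 4 against 0, 0 and 59. PTPN2, a tyrosine phosphatase gene, had 50 counts and AHCY, which hydrolyses S-adenosylhomocysteine, 43 in repeat 3 of hNABP1 KO, against 5 and 4 in repeat 3 of WT. Each of the 6 was high in 1 library alone.

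Repeat 3 of hNABP1 KO decided these calls. Without it 0 of 5124 members were called, and likewise 0 without WT repeat 1 or WT repeat 3, and 3 without WT repeat 2. Without repeat 1 or repeat 2 of hNABP1 KO, 83 and 23 members were called, all higher, among 157 and 56 genes called in those fits. LONP1, a mitochondrial protease gene that passed the stricter filter too, had 3, 7 and 40 counts in WT and 3, 15 and 200 in hNABP1 KO. It was 2.39 higher on the log2 scale (SE 1.28) and did not pass the test. Without repeat 3 of hNABP1 KO its log2 fold change was −0.30.

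Adding NTP, the step that lets polymerases run on, did not change single member genes past the threshold in WT. Of 211 genes tested 66 were members, and 0 (0% of those tested) passed by edgeR or by DESeq2; each counted 1 member at an unadjusted p under 0.05. RN7SK had the smallest p, with a log2 fold change of −2.89 with NTP (SE 1.20) and an edgeR adjusted p of 0.997. That value rested on 674 counts in repeat 3 without NTP, and was 0.37 without that library. GNAI2, a G protein subunit gene, had 2, 0 and 22 counts with NTP and 0, 0 and 1 without, a log2 difference of 3.03 (SE 1.90) that did not pass either. The median of the 66 members was 0.11, beside 0.00 over all 211 genes, and moved to 0.52 and 0.38 with library totals in place of TMM.

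Overlap of member peaks with run-on peaks came mostly from 1 list. The list of hNABP1 KO repeat 3 held 9965 peaks and overlapped 3165 members (46.6%, 95% interval 45.5% to 47.8%) and 1391 shared peaks (63.3%, 61.3% to 65.4%). The other 8 lists held 94 to 518 peaks each, and together overlapped 482 members (7.10%, 6.50% to 7.74%) and 191 shared peaks (8.70%, 7.55% to 9.95%). In WT 27, 43 and 140 members were overlapped in repeats 1, 2 and 3, in hNABP2 KO 54, 55 and 28, and in the first 2 repeats of hNABP1 KO 100 and 79. Members overlapped by hNABP1 KO repeat 3 were wider, with a median of 394 bp against 306 bp for the others, and had nearly the same fold (3.18 against 3.10).

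Few members met run-on peaks of several libraries. RPPH1 met 5 of 9 lists, while MT-TL1, MT-TV and AL356488.2 met 4. Those that met 3 included ACAP2, MT-TP, PFKFB3 (a regulator of glycolysis), MYLIP and NR1D2, a nuclear receptor gene of the circadian clock. Of the 6785 members 3422 met none. Among the histone members, 0 of 26 met hNABP1 KO repeat 3, and 19 of 26 met at least 1 of the other 8 lists. All of those overlaps lay in the repeat 1 libraries, with 5 in WT, 6 in hNABP1 KO and 18 in hNABP2 KO. These lists held 94, 518 and 243 peaks in the same order. The histone genes with member peaks took 0.200%, 0.189% and 0.199% of the counts of these libraries, also in that order. Repeat 1 of hNABP2 KO had 19581 counts against 11981 in WT. The difference in overlaps between genotypes rests on 1 list each and was not tested. Of the 18 U small nuclear RNA members 3 met hNABP1 KO repeat 3 and none met another list.

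DNA:RNA hybrid peaks met few members. Any of the 4 lists without RNase H overlapped 41 members (0.604%, 95% interval 0.434% to 0.819%) and 10 shared peaks (0.455%, 0.219% to 0.836%). The WT lists overlapped 6 and 1 members out of 173 and 107 peaks, and the hNABP2 KO lists overlapped 1 and 33 out of 13 and 167 peaks. The 2 repeats of hNABP2 KO thus lay far apart, 1 of them below repeat 1 of WT and the other above it. Members met by repeat 2 of hNABP2 KO included MT-TP (fold 12.8), NUCB2 (6.45), RUFY1 (5.13), GPR108 (4.63), RN7SK (4.32) and NOL7 (4.25). Mitochondrial members accounted for 6 of the 33. SUCLG2 (4.02) and CDCA7L (3.96) were met by repeat 1 of WT.

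**Figure D5:**
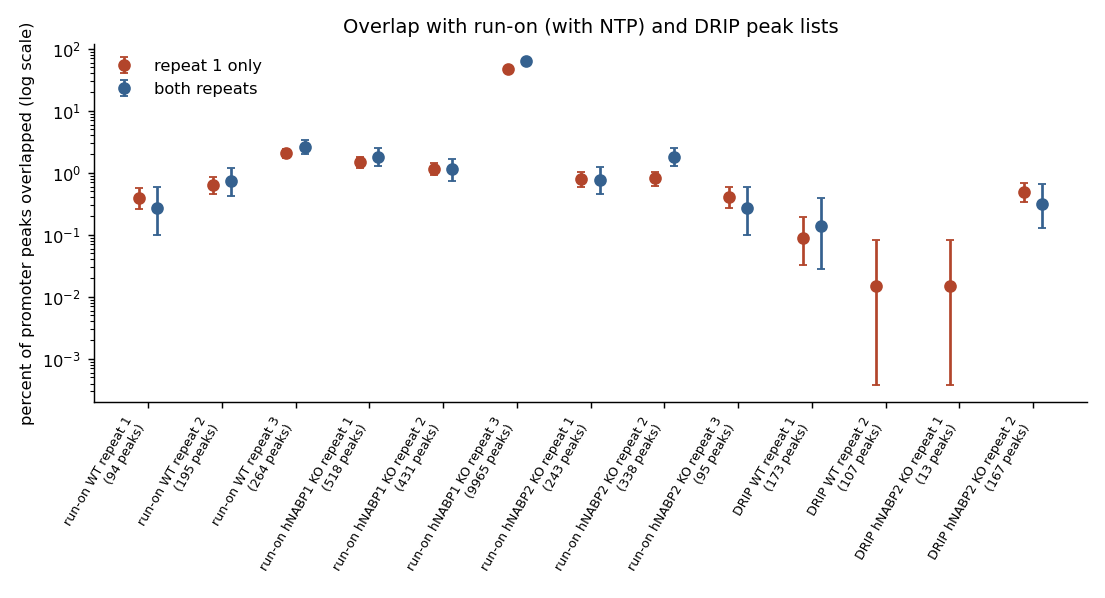
Percent of promoter peaks (y axis, log scale) that overlap each run-on peak list with NTP or DRIP peak list without RNase H (x axis, with the number of peaks in the list), in red for peaks in repeat 1 only and in blue for shared peaks; bars are exact 95% intervals for counting error only, and a blue value of 0 is not drawn. The list of hNABP1 KO repeat 3 reaches 46.6% of members and 63.3% of shared peaks, and every other list stays under 3%.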

How the data were processed

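Members were taken from the annotated peak table of repeat 1, and overlap of 1 bp or more was read against the repeat 2 list. Per the submitters' processing notes, cutadapt 1.18, Bowtie2 2.3.5, SAMtools and MACS2 2.2.1 were used on build hg38, without their roles. Each deposited peak has a fold (a ratio) and a −log10 q value, as deposited by the authors, and each list belongs to 1 sample. The run-on table of 26475 rows holds counts per gene as deposited, with no counting tool stated. All its columns were matched to samples. The symbols of 2 genes, turned into dates, occur in 2 rows each and were left out of gene sets.

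Symbols were matched directly or through RefSeq synonyms. Counts were tested with edgeR 4.0.16 (filterByExpr, TMM, quasi-likelihood F test, Benjamini-Hochberg over all genes tested, threshold 0.05), and with DESeq2 1.42.0 as an alternative, after a check on simulated data. SE is the absolute log2 fold change over the square root of F. CPM uses the total count of a library. Exon lengths were not used here, so gene span served for values per kb. Shares carry exact Clopper-Pearson 95% intervals. Same-numbered libraries deviated together, with r from 0.224 to 0.518 over 9 pairs with NTP. The 3 WT pairs with and without NTP gave 0.190 to 0.240, and 18 pairs of different number with NTP gave −0.314 to 0.0035. Deviations were taken from group means of 3 libraries, which in itself lowers r between different numbers. Repeat 3 was also far deeper with NTP. Whether the repeat numbers mark paired samples was not tested. The sources do not say whether run-on repeats are separate cultures, so p-values measure the spread between these samples.

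Named peaks were the 10 of highest and 3 of lowest fold, those nearest each limit of the rule, the genes with most peaks, the leading members of each list and those that met most other peak lists. Named genes were the 10 of highest mean CPM in WT with NTP and the 3 of smallest p per direction, of which some are printed and 1 is not reported here. Members and lists were chosen with earlier results of these data known. Alternatives were other overlap limits, peak thresholds, count filters, scaling, a replicate block and leaving out each library.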

Additional observations from a re-analysis of the deposited data

How the results depend on the processing

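The share of promoter peaks in repeat 1 only, 75.5%, became 85.6% when at least 50% of the peak had to overlap, 72.6% and 71.5% when a repeat 2 peak within 500 or 1000 bp counted as shared, 72.0% at a fold of 5 or more and 71.9% in the upper part by −log10 q; a limit of 500 bp to the start gave 75.1% and the annotated repeat 2 list left it at 75.5%. Fold 5 or more kept 610 member peaks in 603 genes and the upper part by −log10 q 3232 peaks. Member genes with a count in WT with NTP fell from 5735 to 3549 at 10 counts, and ranged from 2390 to 5733 without 1 replicate, lowest without repeat 3. The median of the mean CPM of member genes, 32.4, was 0 without repeat 3 and 42.6 without repeat 2. Members on a run-on peak ranged from 482 to 3354 without 1 list, lowest without hNABP1 KO repeat 3, and members on a DRIP peak from 8 to 40, lowest without hNABP2 KO repeat 2, with 24 on the upper part of each list; leaving out single lists was chosen after seeing the data. Members called stayed at 0 in all 3 comparisons under each alternative run, including the replicate block, except the replicate block with genes of 10 or more counts for hNABP1 KO, which called 6 (0 to 83 with 1 library less, 23 without hNABP1 KO repeat 2). Leaving out libraries in that fit was added after seeing the data. The block changed no other call. Of 228 alternative fits of the 16 named gene contrasts 222 kept their direction without a call and 1, LONP1, was called at 2.38. That call came from the replicate block with genes of 10 or more counts and 1 library less, a setting added after seeing the data. Directions turned for AHNAK (−1.20) without hNABP2 KO repeat 1, LONP1 (−0.30) and CCDC85B (−0.56) without hNABP1 KO repeat 3, CCDC85B (−0.16) without TMM and RN7SK (0.37) without WT repeat 3 without NTP; the cause was not tested. With 1 library less the ranges were −1.20 to 3.14 for AHNAK, −0.30 to 3.10 for LONP1, −0.56 to 1.64 for CCDC85B and −3.43 to 0.37 for RN7SK. Peak intervals in place of promoter windows were not run, since no genome was used here.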
